A study of Sus scrofa with 6 samples.

Results

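The serine/threonine protein phosphatase subunits were read in scrapings of the uterine mucosa of the pig. They were read at 68 of the 23999 probe sets tested, which stand for 43 of the 6765 genes that have a symbol of their own on the array. A probe set is a group of short DNA probes whose brightness is combined into 1 signal for a transcript. Taken in was each probe set whose single gene symbol in the array's annotation begins with PPP1, PPP2, PPP3, PPP4, PPP5, PPP6 or PPM1. To these was added 1 probe set that has no symbol there and that the study names PPP2R5E. That probe set and 4 others (of PPP1CC, PPP1R2, PPP1R12A and PPP3CB) belong to a list of 210 probe sets that the study drew up from these same arrays as altered by the embryo. The difference between the groups at these 5 is therefore a description without a test, and the tests between the groups are given for the other 63 probe sets. PPP4C and PPP5C, the catalytic subunits of PP4 and PP5, were not analysed here.

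In each of 3 weaned Landrace x Large White sows, pooled boar semen was put into 1 oviduct by laparoscopy and the diluent BTS alone into the other. Both horns were collected on day 6, the inseminated one with blastocysts (the group embryos, 3 arrays) and its counterpart with unfertilised oocytes (the group oocytes, 3 arrays). The mucosal layer of the first 10 cm next to the utero-tubal junction was scraped off with a glass slide, and RNA of each horn went onto an array of its own. Both groups shared the sow, the anaesthesia, the surgery and the flushing of the tract. A horn with oocytes is thus the opposite horn of an inseminated sow and not that of an unmated one, and the spermatozoa and the embryos entered the same horn, so that their parts cannot be told apart. The age of the sows is not given in the sources used here, and which of the right and left horns was inseminated was not used.

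These enzymes take phosphate off serine and threonine. A small number of catalytic subunits do the chemistry, and they owe their targets to partners. PP1 binds one of many regulatory proteins or inhibitors, PP2A is built from a scaffold, a catalytic and an exchangeable B subunit, calcineurin (PP3) is switched on by calcium and calmodulin, and the PPM enzymes work with metal ions and as a rule alone. In epithelia they act, among other things, on the contractile belt of the cell, on junctions, on the cell cycle and on the answer to stress.

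Of 8 epithelial markers 7 were on the array, and 6 were brighter than the median probe set, KRT8, KRT18, KRT19, CDH1, EPCAM and CLDN4. Here and below, signals are in the arbitrary units of the scanner and are given in the order of sows 1, 2 and 3. The 7 summed to 7872, 10161 and 9847 in the oocyte horns and to 7652, 9884 and 10426 in the embryo horns, lowest in sow 1 both times. The summed signal of the 5 stromal markers on the array (DCN, LUM and VIM made up most of it) was 7022, 3305 and 4697 in the oocyte horns and 6559, 3220 and 4887 in the embryo horns, and that of the 6 smooth muscle markers was 2504, 687 and 1028 against 1712, 815 and 1138. The pair of red cell markers on the array, HBB and ALAS2, gave 362, 694 and 966 against 423, 656 and 942, again lowest in sow 1. The 6 leukocyte markers summed to between 94.1 and 177, and each was below the median of all probe sets. None of the markers passed the test between the groups, and sow 1 held more stromal and smooth muscle signal in both horns than the other sows. In scraped tissue fewer cells of a type and less RNA per cell cannot be told apart. Among the control transcripts the 5' to 3' signal ratio of GAPDH was 0.355, 0.20 and 0.226 in the oocyte horns against 0.243, 0.130 and 0.199 in the embryo horns, so it was lower with embryos in each sow, highest on the array of oocytes of sow 1 and lowest on that of embryos of sow 2. The actin control gave 0.219, 0.105 and 0.118 against 0.149, 0.0577 and 0.104, in the same order at both ends.

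The comparison of the groups asks whether the scrapings next to blastocysts differ from those next to oocytes. Its main fit sets 3 arrays against 3 and leaves out the sow. Standard errors, intervals and p of differences between the groups come from that fit unless they are said to be blocked by sow. Whether the groups overlap is likewise judged without the sow. After adjustment over the array at 0.05, limma called none of the 63, and 0 of all 23999 probe sets (0%). The study's list came from another method, a mixed model of single-probe intensities with Bonferroni correction, so the counts are not alike. The study also reports RDX, SLCO1A2 and TICAM2, which are not among these subunits, as lower with embryos by qPCR. At an unadjusted p under 0.05 there was 1 of the 63 (1.59%), against 692 probe sets (2.88%) over the array, and blocking on the sow gave 6 (9.52%), against 2088 (8.70%), again with none after adjustment. The median difference, embryos minus oocytes on the log2 scale of the normalized signals, was -0.02 for the 63 and -0.04 for all 68, beside 0.01 for the whole array. Of the 63, 38 (60.3%) were lower with embryos by the group mean, where 49.2% of the array was. In all 3 sows 10 (15.9%) were lower in the embryo horn, as were 14.8% of the array, and 5 (7.94%) were higher there, against 14.9%. The 3 arrays of one group lay wholly below those of the other in 2 cases, PPP1R15B at a dim probe set, one below the median signal of the array (lower with embryos, where the array has 3.98%) and PPP1R8 (higher, where the array has 4.03%).

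Both roles had probe sets on either side of 0. The 23 catalytic probe sets (13 genes) had a median difference of -0.00 on the log2 scale, with 12 lower and 11 higher, and ran from -0.59 to 0.29. The 42 regulatory probe sets (28 genes) had a median of -0.06, with 29 lower and 13 higher, and ran from -2.31 to 0.66. The 3 scaffold probe sets (2 genes) had a median of -0.25, with 2 lower in all 3 sows. All 23 catalytic probe sets had a signal above the median of the array, as did 27 of the 42 regulatory ones, and the 5 regulatory probe sets with the largest differences in size were among the 15 below that median. By complex the median was -0.02 for calcineurin (7 probe sets), -0.04 for PP1 (28), -0.03 for PP2A (15), -0.13 for PP4 (5), -0.06 for PP6 (7) and 0.03 for the PPM enzymes (6). Without the listed probe sets the catalytic median was 0.03 and the regulatory median -0.04.

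**Figure D1:**
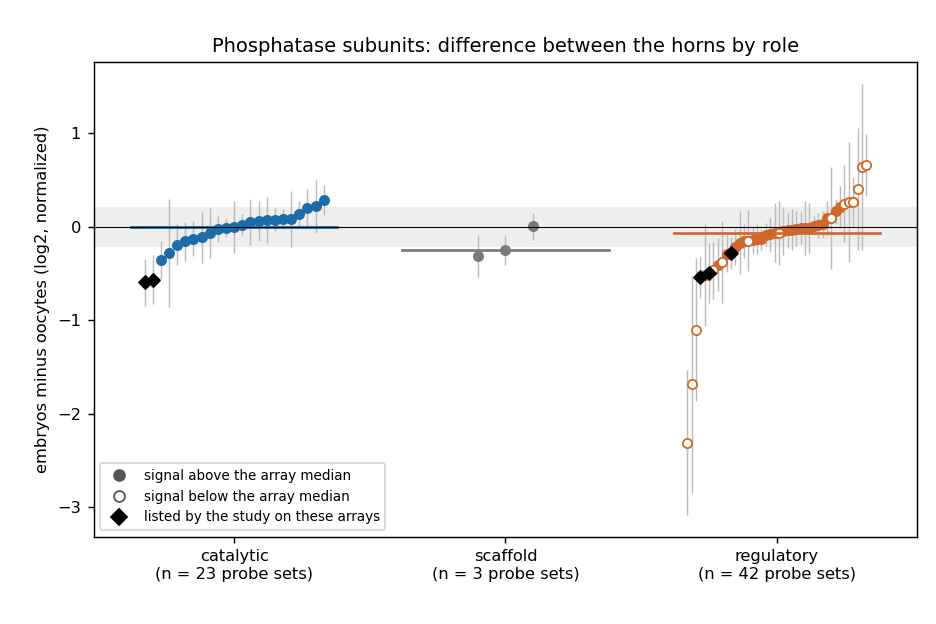
Difference between the groups (log2 of the normalized signal, embryos minus oocytes, y axis) for the 68 probe sets by role, each with its standard error from limma as a vertical line. Horizontal lines are the medians, -0.00, -0.25 and -0.06. The grey band spans the lower to the upper quartile of the difference over all probe sets of the array, from -0.21 to 0.20. Open circles lie below the median signal of the array, and the 5 black diamonds, listed by the study on these arrays, all lie below 0.

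PP1 has 3 catalytic isoforms, and each was measured at 2 probe sets. PPP1CA at its brightest probe set gave 162, 122 and 116 in the oocyte horns and 190.0, 103 and 138 in the embryo horns. Its value was lower with embryos in sow 2 alone, and the groups overlapped (difference 0.07, standard error 0.24). PPP1CB, the isoform that joins the myosin phosphatase, gave 399.8, 384 and 505 in the oocyte horns and 597, 454 and 522 in the embryo horns at its brightest probe set. Every sow had the higher signal with embryos, most of all sow 1, while the groups overlapped. The difference was 0.29 with a standard error of 0.16. Blocked by sow the standard error was 0.10 (adjusted p = 0.469 with limma). Its other probe set pointed the other way in each sow, with 485, 339.9 and 400.5 in the oocyte horns and 444, 316 and 365 in the embryo horns (difference -0.13, standard error 0.19). PPP1CC gave 1194, 1241 and 1458 in the oocyte horns and 1323, 1342 and 1277 in the embryo horns at the probe set that the study did not list. Sows 1 and 2 were higher and sow 3 lower with embryos, with a difference of 0.03 and a 95% confidence interval from -0.23 to 0.28.

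The 22 probe sets of PP1 regulators cover 16 genes, and 2 of them held the listed probe sets of PPP1R2 and PPP1R12A. PPP1R8, the nuclear inhibitor NIPP1, gave 145, 148 and 156 in the oocyte horns and 172, 157 and 178 in the embryo horns. The lowest array with embryos lay just above the highest with oocytes, and the difference was 0.17 (standard error 0.13, 95% confidence interval -0.13 to 0.47, adjusted p = 1.00 with limma). PPP1R3E, a subunit that ties PP1 to glycogen, gave 61.7, 72.6 and 59.8 in the oocyte horns and 69.2, 96.3 and 63.4 in the embryo horns, higher with embryos in each sow and highest in sow 2 (difference 0.21, standard error 0.23). PPP1R21 gave 106, 138 and 131 in the oocyte horns and 118, 164 and 122 in the embryo horns, and sow 3 went against the other sows (difference 0.09, standard error 0.19). PPP1R13B, known as ASPP1, a partner of p53, gave 70.8, 62.2 and 81.2 in the oocyte horns and 58.5, 64.8 and 52.3 in the embryo horns. Sows 1 and 3 were lower with embryos, sow 2 was near level, and the groups overlapped (difference -0.29, standard error 0.20).

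Other regulators of PP1 lay closer to 0 or were dim. PPP1R7 (SDS22) and PPP1R11, which bind the catalytic subunits, and PPP1R3B, another glycogen subunit, had differences of -0.02, -0.08 and -0.04. The stress-induced subunit PPP1R15A (GADD34), which brings PP1 to the initiation factor eIF2 alpha, gave 59.5, 42.4 and 26.9 in the oocyte horns and 35.5, 44.6 and 38.2 in the embryo horns, with the oocytes of sow 1 highest and those of sow 3 lowest. Its constitutive relative PPP1R15B (CReP) was measured at 3 probe sets that went different ways. The one above the median gave 51.3, 49.9 and 59.7 in the oocyte horns and 30.6, 46 and 77.2 in the embryo horns (difference -0.17, standard error 0.34). Both others had signals under 12 on each array. At the first of these they were 9.6, 8.3 and 1.9 in the oocyte horns and 1.5, 0.9 and 1 in the embryo horns, the 1 probe set of the 63 at an unadjusted p under 0.05 (difference -2.31, standard error 0.78, adjusted p = 1.00 with limma). At the second the difference was 0.64 (standard error 0.89), in the other direction. The CPI-17 family of PP1 inhibitors was represented by PPP1R14A (0.27), PPP1R14D (0.27) and PPP1R14B. PPP1R14B gave 25.2, 14.9 and 16.6 in the oocyte horns and 35.4, 20.3 and 35.5 in the embryo horns at a probe set below the median of the array, higher with embryos in each sow (difference 0.66, standard error 0.33). At its other probe set the difference was -0.01. PPP1R1A, an inhibitor of PP1 switched on by protein kinase A (-0.52, standard error 0.55) and PPP1R16B, a membrane-bound targeting subunit (-0.15, standard error 0.32) were dim as well.

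Of the subunits of PP2A, PPP2CA at its brightest probe set and PPP2R2A had nearly level signals over the 6 arrays. PPP2CA, the alpha catalytic subunit, gave 1098, 1113 and 1116 in the oocyte horns and 1130.4, 1102 and 1061 in the embryo horns there. Of the 43 genes at their brightest probe set it had the narrowest 95% confidence interval of the difference, from -0.24 to 0.21 around -0.01. Its other probe set was less level, with 50.3, 47.2 and 33 in the oocyte horns and 35.3, 49.3 and 39.8 in the embryo horns (difference -0.07, standard error 0.27). The beta catalytic subunit PPP2CB gave 840.5, 960.1 and 1032 in the oocyte horns and 985, 1018 and 981 in the embryo horns, with the oocytes of sow 1 apart at the low end (difference 0.08, standard error 0.11). PPP2R2A, a B subunit with a role in leaving mitosis, gave 585, 636 and 621 in the oocyte horns and 619.6, 619.9 and 616 in the embryo horns, and all 3 arrays with embryos fell within the range of those with oocytes (difference 0.01, 95% confidence interval -0.22 to 0.24).

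The scaffold of PP2A, onto which the other subunits are built, is made by a pair of genes, and neither passed the test. PPP2R1A gave 174, 97 and 138 in the oocyte horns and 119, 93.9 and 110.2 in the embryo horns. Each sow was lower with embryos, sow 2 by little, and the groups overlapped. The difference was -0.31 with a standard error of 0.23. Blocked by sow the standard error was 0.13 (adjusted p = 0.536 with limma). PPP2R1B gave 290.4, 277 and 260.0 in the oocyte horns and 269, 199 and 236 in the embryo horns at the dimmer of its probe sets, again lower in each sow (difference -0.25, standard error 0.15). Its brighter probe set gave 465, 594 and 622 in the oocyte horns and 488, 566 and 635 in the embryo horns, a difference of 0.01 with sow 2 lower and the other sows higher.

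Among the exchangeable B subunits of PP2A, PPP2R5D gave 48.7, 38 and 38.6 in the oocyte horns and 30.6, 23.4 and 43.8 in the embryo horns, lower with embryos in sows 1 and 2 and higher in sow 3 (difference -0.40, standard error 0.28). PPP2R5A gave 182, 188 and 181 in the oocyte horns and 179.6, 175 and 206 in the embryo horns, and the embryos of sow 3 stood above the rest (difference 0.02, standard error 0.13). PPP2R5C was measured at 3 probe sets with differences of 0.03, -0.03 and -0.14. The last of them gave 295, 259 and 288 in the oocyte horns and 216, 274 and 278 in the embryo horns, and the low value came from the embryos of sow 1. The first gave 265, 347 and 365 in the oocyte horns and 290.1, 360.3 and 342 in the embryo horns, lowest in both horns of sow 1. PPP2R2B was dim (0.10, standard error 0.55).

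Calcineurin was present through its 3 catalytic isoforms. PPP3CA gave 145, 253 and 213 in the oocyte horns and 162, 205 and 174 in the embryo horns at its brightest probe set, with sow 1 higher and the other sows lower with embryos (difference -0.15, standard error 0.21). At another it gave 90.5, 163 and 171 in the oocyte horns and 122, 213 and 155 in the embryo horns, with sows 1 and 2 higher and sow 3 lower (difference 0.22, standard error 0.28). The remaining probe set gave 75, 119 and 141 in the oocyte horns and 96.5, 117 and 126 in the embryo horns and a difference of 0.05. All 3 probe sets of PPP3CA were lowest on the oocytes of sow 1. PPP3CB gave 336, 327 and 339.9 in the oocyte horns and 338, 397 and 330.2 in the embryo horns at its brightest probe set, with the embryos of sow 2 alone above the rest (difference 0.08, 95% confidence interval -0.20 to 0.35). PPP3CC gave 55.9, 29.5 and 47.6 in the oocyte horns and 42.4, 41.8 and 35.7 in the embryo horns, in which sow 2 went against the others (difference -0.11, standard error 0.28).

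PP4 and PP6 are relatives of PP2A with regulators of their own. PPP6C, the catalytic subunit of PP6, gave 262, 267 and 252 in the oocyte horns and 277, 332 and 259.6 in the embryo horns. It was higher with embryos in each sow, chiefly in sow 2, and the groups overlapped (difference 0.14, standard error 0.13). PPP4R3B, a regulator of PP4, gave 698, 696 and 611 in the oocyte horns and 605, 610.3 and 616 in the embryo horns. The oocytes of sows 1 and 2 stood above the other 4 arrays, which lay together (difference -0.13, standard error 0.11). PPP4R2, another, gave 472, 381 and 468 in the oocyte horns and 458, 339.5 and 414 in the embryo horns at its brightest probe set, lower with embryos in each sow and lowest in both horns of sow 2 (difference -0.13, standard error 0.16). Its dim second probe set was lower in each sow too (difference -0.47, standard error 0.31). PPP4R3A (-0.38) and PPP4R1L (0.25) were dim. The PP6 regulators PPP6R2 and PPP6R3 were near 0 at their brightest probe sets (-0.01 and -0.08). At dim probe sets they ran from -1.68 (standard error 1.16) to 0.41 (standard error 0.65).

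Of the PPM enzymes, PPM1D (WIP1), which turns off the DNA damage response, gave 103, 67.5 and 81.1 in the oocyte horns and 73.7, 59.8 and 61.5 in the embryo horns. Each sow was lower with embryos, and the groups overlapped through the oocytes of sow 2 (difference -0.36, standard error 0.20). Blocked by sow the standard error was 0.145 (adjusted p = 0.533 with limma). PPM1B, which acts on stress-activated kinases, gave 412, 576 and 588 in the oocyte horns and 457, 810.0 and 573 in the embryo horns at its brightest probe set, and the embryos of sow 2 were far above the rest (difference 0.20, standard error 0.21). PPM1G, a nuclear enzyme tied to splicing, gave 141, 214 and 233 in the oocyte horns and 161, 229.8 and 218 in the embryo horns, lowest in both horns of sow 1 (difference 0.06, standard error 0.21). PPM1F gave 39, 31.2 and 41.4 in the oocyte horns and 40.1, 26.1 and 48.4 in the embryo horns, lowest in both horns of sow 2 (difference -0.00, standard error 0.28).

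The 5 listed probe sets, which were chosen on these arrays, were each lower with embryos in all 3 sows, with a median difference of -0.54, and 4 of the 5 genes have another probe set that was not. The standard errors given with their values below leave out the sow. Blocked by sow, those of the listed probe sets were 0.09 for PPP1CC, 0.16 for PPP3CB, 0.14 for PPP1R12A, 0.09 for PPP1R2 and 0.10 for PPP2R5E. PPP1CC at the listed probe set gave 415, 245 and 311 in the oocyte horns and 269.9, 156 and 235 in the embryo horns. Every sow was lower with embryos although the groups overlapped (difference -0.56, standard error 0.26), whereas its other probe set, given above, differed by 0.03. PPP3CB at its listed probe set gave 97.5, 75.6 and 73 in the oocyte horns and 75.6, 39.2 and 53.6 in the embryo horns, a difference of -0.59 (standard error 0.25) that was widest in sow 2. The groups overlapped in the deposited signals and not in the normalized ones. Its other probe sets differed by 0.08 and -0.02, and the second of them gave 229, 242 and 222 in the oocyte horns and 241, 244 and 202 in the embryo horns, with the groups overlapping.

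PPP1R12A, the myosin-binding subunit MYPT1 that brings PP1 to the contractile belt, had 131, 78.3 and 117 in the oocyte horns and 93.1, 45.8 and 101 in the embryo horns at the listed probe set. The embryos of sow 2 were lowest, and the groups overlapped (difference -0.50, standard error 0.32). Its brightest probe set gave 431, 302 and 359 in the oocyte horns and 409.9, 282 and 380.5 in the embryo horns and a difference of -0.03 (standard error 0.20). At the remaining one it gave 127, 96.3 and 95.2 in the oocyte horns and 104, 99 and 111 in the embryo horns and -0.01. In both of these sow 3 was higher with embryos.

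PPP1R2, the inhibitor-2 of PP1, had 338, 218 and 270.0 in the oocyte horns and 238, 152 and 183 in the embryo horns at the listed probe set (difference -0.54, standard error 0.22). The study names this probe set after a pseudogene of PPP1R2, so transcripts of the gene and of its copies cannot be told apart there. At its other probe set the gene gave 292, 251 and 269 in the oocyte horns and 310.1, 229 and 205 in the embryo horns, higher with embryos in sow 1 and lower in the other sows (difference -0.15, standard error 0.18).

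PPP2R5E, a B subunit of PP2A, was the exception, with both probe sets lower in each sow. The listed one gave 217, 177 and 209.6 in the oocyte horns and 195, 140.2 and 168 in the embryo horns (difference -0.28, standard error 0.17). The other gave 107, 85.8 and 88.1 in the oocyte horns and 96.5, 66.1 and 82.2 in the embryo horns (difference -0.22, standard error 0.19, adjusted p = 1.00 with limma), and the groups overlapped at both.

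All 5 listed probe sets were, on the normalized scale, highest on the array of oocytes of sow 1 and lowest on that of embryos of sow 2, the arrays at either end of the 5' to 3' ratio of the controls. Of the other 63, 10 (15.9%) had that order, among them PPP2R1A, PPP2R1B at its dimmer probe set, PPP2R5D, PPP2R5E and PPP4R3B, where 7.69% of the array had it. With the ratio as a covariate the listed differences were -0.19 for PPP1CC, -0.24 for PPP1R2, -0.10 for PPP1R12A, -0.10 for PPP2R5E and -0.30 for PPP3CB. What part the ratio has in them was not tested.

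**Figure D2:**
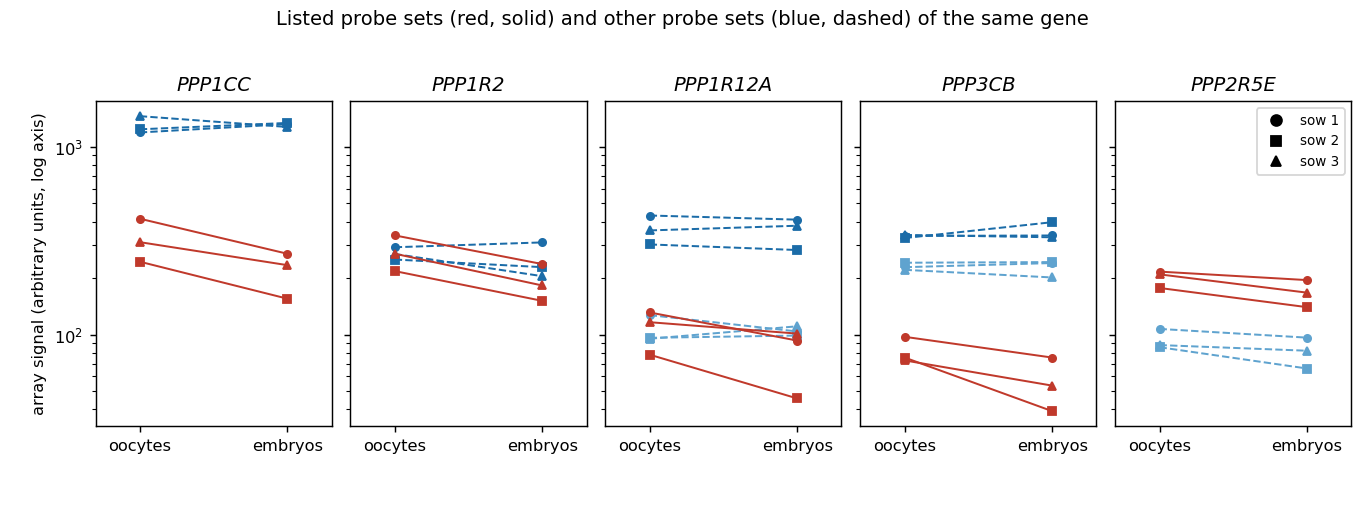
Signal on each array (arbitrary units, log axis) for the 5 genes with a listed probe set, with oocytes at left and embryos at right in each panel and a line for each sow (circle sow 1, square sow 2, triangle sow 3). Solid red lines are the listed probe sets, which slope down in all 3 sows for each gene, and dashed blue lines are the other probe sets of the gene, which slope down in all 3 sows for PPP2R5E alone.

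Agreement among probe sets of a gene was asked for the 17 genes with several, which make 25 pairs of the brightest and another probe set. In 11 of the 25 pairs both probe sets differed in the same direction between the groups, and in 8 of the 20 pairs without a listed probe set, where 1641 of 3305 pairs did over the array. The median size of the unequal change, the difference at the other probe set minus that at the brightest, was 0.37 on the log2 scale for the 25 pairs and 0.35 over the array. After adjustment limma called none of the 20 pairs, nor any of the 3305 (0%), while 154 of these (4.66%) had an unadjusted p under 0.05, or 375 (11.3%) when blocked by sow.

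The probe sets of PPP1CB went opposite ways in every sow, each with 1 direction throughout. The second probe set of PPP2CA and a dim one of PPP1R15B and of PPP6R2 also opposed the brightest in every sow, but with directions that turned from sow to sow. For PPP1CB the unequal change was -0.71, -0.35 and -0.18 in sows 1, 2 and 3 and -0.41 in the fit (standard error 0.20, adjusted p = 0.876 with limma). PPM1B gave -0.46, -0.61 and -0.09 and a fitted -0.39 (standard error 0.19) at 1 of its other probe sets, and there too every sow had the same sign. In PPP3CA the other probe set that passed the sow test below gave 0.27, 0.70 and 0.15 against the brightest probe set (0.37, standard error 0.22). PPP1CA, with -0.20, -0.33 and -0.53 (-0.35, standard error 0.43), and PPP2R1B, with -0.18, -0.41 and -0.18 (-0.26, standard error 0.24), also kept 1 sign over the sows. PPP2CA did not, with -0.58, 0.12 and 0.30 (-0.05, standard error 0.26), nor did PPP2R5C or PPP6R2. At PPP1R15B the first of the dim probe sets gave -1.97, -3.01 and -1.43 (-2.14, standard error 0.87, adjusted p = 0.876 with limma), at signals under 10.

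**Figure D3:**
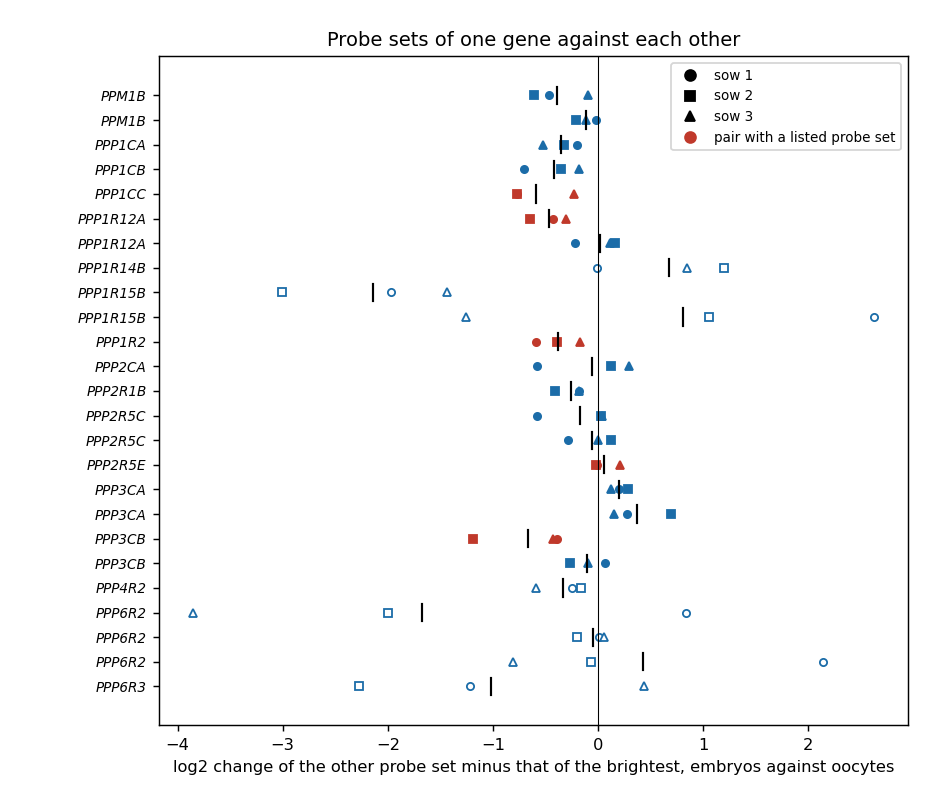
Change between the groups at another probe set of a gene minus that at its brightest (log2, x axis) in each sow, for the 25 pairs of 17 genes (a row each). Black ticks are the fitted means, open symbols have a dim other probe set, and red symbols are pairs with a listed probe set. The 3 sows lie on 1 side of 0 for PPP1CB, PPP1CA, PPP2R1B and PPP4R2 and for pairs of PPM1B, PPP3CA and PPP1R15B. They also do so for the red pairs of PPP1CC, PPP1R12A, PPP1R2 and PPP3CB. Pairs with open symbols reach beyond 1 on both sides.

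Several catalytic subunits differed between the sows by the mean of both horns. The test of the sow beside the group, which the choice of probe sets did not use, was passed after adjustment (0.05, limma) by 13 of the 68 (19.1%), where 2707 of the array (11.3%) passed. Among probe sets above the median signal these are 13 of 53 (24.5%) against 2493 of 11999 (20.8%), so the count as a whole lay near its background. By role they were 9 of 23 catalytic probe sets (39.1%), 4 of 42 regulatory ones (9.52%) and 0 of 3 scaffold ones. All 23 catalytic probe sets and 27 regulatory ones (4 of these passed, 14.8%) lay above the median, where 20.8% of the array passed. Several of the 13 belong to the same gene. At the brightest probe set of each gene 3 of 13 catalytic genes (23.1%) and 2 of 28 regulatory ones (7.14%) passed. PP2A had 0 of 15, PP1 7 of 28 and the PPM enzymes 4 of 6. These shares are descriptions, and probe sets of a gene share its transcripts. The range of the 3 sow means had a median of 0.51 on the log2 scale and the size of the difference between the groups one of 0.14, beside 0.58 and 0.20 over the array, and a range over 3 means of 2 arrays is by its make wider than a difference between means of 3.

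Highest in sow 1 and lowest in sow 2 were 8 of the 13, all but 1 of them PP1 catalytic subunits or their partners. That is a share of 61.5% where 808 of the 2707 called over the array (29.8%) had that order. Among the 8 were 3 probe sets of the study's list, and PPP1CA and PPP1R12A each stood there with more than 1 probe set. PPP1CA at its dimmer probe set gave 87.1, 26.7 and 47.3 in the oocyte horns and 89.5, 17.6 and 39.7 in the embryo horns. Both horns of sow 1 stood above those of sow 3 and these above those of sow 2, over a range of 1.91 on the log2 scale (adjusted p = 0.00261 with limma). The other probe set of PPP1CA was again highest in sow 1, though lowest in sow 3 among the oocyte horns and in sow 2 among the embryo horns, over 0.66 (adjusted p = 0.0422). The listed probe sets of PPP1CC (range 0.82, adjusted p = 0.00365), PPP1R2 (0.68, adjusted p = 0.00773) and PPP1R12A (0.85, adjusted p = 0.0151) had the same order of sows, though their other probe sets at PPP1CC (adjusted p = 0.742) and PPP1R2 (adjusted p = 0.105) did not pass. PPP1CB at its dimmer probe set (range 0.56, adjusted p = 0.0112), PPP1R12A at its brightest (0.58, adjusted p = 0.0137) and PPP4R2 (0.42, adjusted p = 0.0381) complete the group.

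The 5 lowest in sow 1 (38.5% of the 13, beside 39.2% of the 2707) were PPM1B at all 3 of its probe sets, PPM1G and PPP3CA. PPM1G, PPP3CA and the brightest probe set of PPM1B were highest in sow 3 among the oocyte horns and in sow 2 among the embryo horns. PPM1B at the first of its dimmer probe sets gave 115, 215 and 188 in the oocyte horns and 126, 259 and 172 in the embryo horns. Both horns of sow 1 lay below the other 4 arrays and both horns of sow 2 above, over a range of 0.95 (adjusted p = 0.00432 with limma). At the second the signals were 146, 212 and 158 in the oocyte horns and 118, 194 and 146 in the embryo horns (range 0.61, adjusted p = 0.0257), and at the brightest the range was 0.60 (adjusted p = 0.0257). PPP3CA at 1 probe set ranged over 0.82 (adjusted p = 0.0194), and its other probe sets, also lowest in sow 1, did not pass (adjusted p = 0.0592 and 0.0745). PPM1G ranged over 0.54 (adjusted p = 0.0230) and by the mean of both horns was highest in sow 3. At the other end PPP2R2A had sow means within 0.01 of each other, PPP1R13B within 0.05 and PPP2CA at its brightest probe set within 0.07. The other probe set of PPP2CA ranged over 0.47 and the dim PPP2R2B over 1.40, and neither passed.

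**Figure D4:**
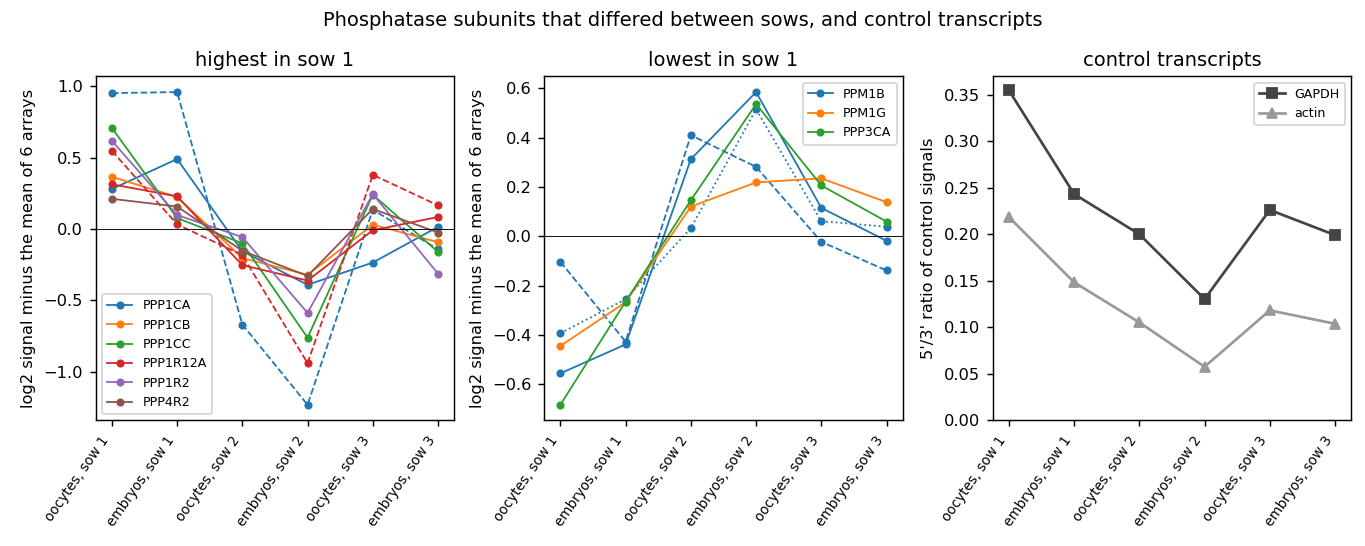
Log2 normalized signal minus the mean of the 6 arrays (y axis) on each array (x axis, grouped by sow) for the 8 probe sets that passed the sow test and were highest in sow 1 (left) and the 5 that were lowest in sow 1 (middle), with a colour for each gene and a line style for each of its probe sets, and the 5' to 3' signal ratios of the GAPDH and actin controls (right). PPP1CA reaches 0.96 above its mean in sow 1 and 1.23 below it on the array of embryos of sow 2, where the GAPDH ratio is 0.130.

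Sow 1 also had the most stromal and smooth muscle signal, the least epithelial and red cell signal and the highest control ratios, as given above. Sow 2 had the least stromal and smooth muscle signal and the lowest control ratios, in both groups. Markers of the stroma, smooth muscle, epithelium and red cells passed the test between sows themselves (adjusted p from 0.000104 to 0.0359 with limma). They were COL1A2, DCN, LUM and VIM of the stroma, ACTA2, TAGLN and SMTN of smooth muscle, KRT8 and CDH1 of the epithelium, and ALAS2. The part of these markers in the differences between sows was not tested. With the control ratio beside the sow and the group, a fit with 1 residual degree of freedom added after the data were seen, 0 of the 68 and 943 of the 23999 passed. Without the trend of the variance on the signal, none passed either (0 of 23999). Leaving out 1 array gave 3 without the oocytes of sow 1, 4 without the embryos of sow 1, 6 without the embryos of sow 2 and 20 without the embryos of sow 3, and PPP1CA at its dimmer probe set, PPP1CC at the listed one and PPM1B at the first of its dimmer ones passed in each of the 6 such fits.

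Proteins that work with these phosphatases were taken from 7 lists, of which 34 of 76 genes were on the array and were read at their brightest probe set. None passed the test between the groups or had an unadjusted p under 0.05 with limma in the fit without the sow. Blocked by sow none passed after adjustment either. An unadjusted p under 0.05 was then reached by ROCK1, CALM3, SH3GLB1, YLPM1, MYL9 and RCAN3 (0.0055 to 0.0494 with limma), beside 8.70% of the array. In all 3 sows 6 of the 34 were lower with embryos and 3 higher, beside 14.8% and 14.9% of the array. The median difference was -0.05, beside 0.01 for the whole array. ROCK1, the kinase that inhibits the myosin phosphatase, gave 118, 80.4 and 68.3 against 76.4, 42.3 and 59.5 at its unlisted probe set. Each sow was lower with embryos, and the groups overlapped through sows 1 and 3 (difference -0.59, standard error 0.27). The study lists another probe set as ROCK1. Of its list of 6 genes on myosin light chain and its kinases, 5 were lower by the mean, with MYL6 at -0.05 (standard error 0.10), and MYL9 was at 0.36 (standard error 0.37).

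Around calcineurin, CALM3, a calmodulin gene, gave 314, 336 and 391 in the oocyte horns against 351, 430.4 and 453, higher in each sow with overlapping groups (difference 0.24, standard error 0.14). RCAN3, an inhibitor of calcineurin, was higher in each sow too (0.45, standard error 0.29), while NFATC1 was dim (-0.68, standard error 0.74). Among the other partners of PP1, YLPM1 gave 175, 179.9 and 162 in the oocyte horns against 205, 212 and 197 (0.25, standard error 0.13). Its groups did not overlap, as was so in this direction for 4.03% of the array. SH3GLB1 gave 431, 546 and 488 in the oocyte horns against 428, 445 and 351, lower in each sow (-0.26, standard error 0.14). AKAP1, an anchoring protein, was dim (-0.86, standard error 0.70).

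Of the 7 genes on the making and inhibition of PP2A, 4 were lower and none had 1 direction in all 3 sows. PPME1, which takes the methyl group off the PP2A catalytic subunit, gave 155, 111 and 102 against 104, 84.8 and 107 (-0.30, standard error 0.20). IGBP1, a chaperone of the catalytic subunits, was at 0.17 and SET, an inhibitor, at -0.05. In the STRIPAK complexes of PP2A, SLMAP (-0.35, standard error 0.25) and CTTNBP2NL (-0.63, standard error 0.48) were lower in each sow and CTTNBP2 was at 0.29 (standard error 0.26). The PP6 ankyrin subunits ran from -0.11 (ANKRD28) to 0.81 (ANKRD52, dim, standard error 0.72), with ANKRD44 at -0.01. Of 4 other genes of the PPM family 1 was lower, with PPTC7 at 0.15 (standard error 0.27), PDP2 at 0.06, TAB1 at 0.02 (dim, standard error 0.29) and ILKAP at -0.18 (dim, standard error 1.26). Between sows 5 of the 34 passed, CALM2, RCAN1, MYL9, RHOA and PPTC7 (adjusted p from 0.00337 to 0.0121 with limma), a share of 14.7% beside 11.3% of the array. All 5 were among the 24 above the median signal, where the share was 20.8%, the same as for all such probe sets (20.8%).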

How the data were processed

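RNA of 6 horns was hybridized to 6 Affymetrix porcine arrays. The authors deposited 1 intensity signal per probe set (24123), made with MAS5 version 5.1 on a linear scale, before the Lowess step that the methods name. Detection calls were not used here, and for arrays no read depth applies, so that the 3 arrays per group limit the precision. Signals under 0.1 were set to 0.1, put on a log2 scale and normalized by cyclic loess, and 124 control probe sets were then removed. With limma 3.58.1 in R 4.3.3 (variance trend, Benjamini-Hochberg, threshold 0.05) 3 tests were fitted over all probe sets or pairs: the group, the sow beside the group by an F test, and the log2 ratio of another probe set of a gene to its brightest. In simulated data 100 bright probe sets were shifted by 1 and 100 by 2 log2 units. The group test recovered 68 and 95 of them, or 44 and 84 when blocked by sow, and the sow test (shifted in sow 1) 18 and 68. The pair test recovered 36 and 53 of as many pairs of any brightness. The simulated arrays held no differences between sows other than the shifts. The 68 and 95 of the group test thus leave out the spread between sows that the real arrays have. Plots come from matplotlib 3.10.9 (Python 3.11.15).

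The replicate number was taken as the sow, because the ratios per sow that the methods give equal those of arrays with the same number, and deviations from the group means correlated at 0.207, 0.173 and 0.100 within these pairs. The sow as a block, other normalizations, floors and filters, the control ratio as a covariate and leaving out each array were alternatives. Members, lists and tests were chosen with earlier results of these data known. Named are all members, with values on each array for the listed probe sets, the brightest probe set of catalytic and scaffold subunits, the 6 other bright members in each direction and the 5 between sows with the smallest p, and of each partner list up to 3 genes with the smallest p. PPP1R2 was added to the listed genes after its place on the study's list was found. Symbols of 66 of the 68 members were matched to a current gene table, and 0 changed.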

Additional observations from a re-analysis of the deposited data

How the results depend on the processing

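The test between the groups gave 0 calls under each alternative run for it, the replicate block included. So did the test of probe set pairs, which was not run with the control ratio as a covariate. The block left the median of the 68 members at -0.04, since it does not move a mean difference, and raised the members outside the study's list with an unadjusted p under 0.05 from 1 to 6. That median was -0.092 with the 5' to 3' ratio of the controls as a covariate, and ran from -0.081 to -0.022 when 1 array was left out. The catalytic minus regulatory median was 0.06, or 0.01 to 0.13 when 1 array was left out, and moved by less than its spread over the sows under each alternative. The partner genes ran from -0.078 to 0.071 around -0.05 when 1 array was left out. Between sows, 2707 probe sets and 13 members passed, against 0 and 0 without the variance trend, 943 and 0 with the ratio as a covariate (added after the data were seen), 1833 and 5 without the group in the model, and 1317 to 3638 and 3 to 20 when 1 array was left out. Scaling to the same median called 14 members, 8 of them among the 13. The cause of these moves was not tested. Of 748 differences of single members, leaving out the block and the signal filter, which cannot move a mean difference, 664 moved by less than the spread over the sows. With the ratio as a covariate 24 of the 68 changed sign, as many without the oocytes of sow 1 and 18 without the embryos of sow 2, and among the 27 members over 0.2 in size these were 5, 6 and 3. With 3 arrays a group the 95% confidence interval of a bright member reached about 0.2 to either side at best, and 15 of the 68 lay below the median signal of the array.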
